A study of Homo sapiens with 10 samples.

Results

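Human chromosome 16 holds the genes described here. They were chosen by their position on the chromosome and by their FPKM in the libraries, and the chromosome itself was chosen because its genes had been seen to be lower in the *VEGFC-LNC* deletion clones than in their controls. A gene was kept when FPKM (fragments for each kilobase of a transcript, scaled to 1000000 mapped reads) multiplied by transcript length in kilobases, a count of reads scaled in the same way, was at least 1 in 2 or more of the 10 libraries. Of the 1126 gene symbols of the chromosome in the table, 622 were members by this rule, out of 13376 genes tested over all chromosomes. A further 11 symbols of the chromosome passed and were left out by name.

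The libraries were made from total RNA, depleted of rRNA, of clones of EA.hy926, an established human line obtained by fusing umbilical vein endothelial cells with A549 lung carcinoma cells. *VEGFA-LNC* and *VEGFC-LNC* are long noncoding RNAs transcribed near *VEGFA* on chromosome 6 and *VEGFC* on chromosome 4. In 3 clones the promoter of *VEGFA-LNC* was deleted on all alleles by CRISPR/Cas9 (genotype label VEGFA_lincRNA knock-out) and in 3 other clones that of *VEGFC-LNC* (VEGFC_lincRNA knock-out). Each deletion had 2 control libraries of its own, from cells given the gRNAs without Cas9 and taken through the same clonal selection. The labels name no other treatment in any group. Each deletion library is 1 clone, so that what a clone carried besides the deletion cannot be told apart from the deletion, and neither the labels nor the methods say whether the 2 controls of a set were separate clones or cultures, so that p-values measure the spread between these libraries only.

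Chromosome 16 is rich in genes. Its short arm carries the alpha globin genes and many ribosomal, mitochondrial and chromatin genes, and its long arm carries the metallothionein cluster, a family of cadherins and several genes of lysosomes and autophagy. Parts of the short arm are made of recent duplications, in which neighbouring genes are near copies of each other and share reads. Metallothioneins are small cysteine-rich proteins that bind zinc and copper, and their genes are switched on by metal through the factor MTF1. Genes of mitosis are switched on late in the cell cycle, in part through a short promoter element known as the cell cycle genes homology region.

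The libraries held between 6743998 and 24197832 reads, as recovered from the steps of the FPKM values, of which 100% came to whole reads within 0.1 of a read. Of 10 endothelial markers, 9 passed the filter and *CLDN5*, a tight junction protein, was at 0 in all 10 libraries. The 2 controls of a set were more alike than any 2 clones. Over genes with at least 40 reads in a pair, 18.4% (*VEGFA-LNC*) and 9.83% (*VEGFC-LNC*) differed between the 2 controls by more than counting noise at an unadjusted p of 0.05, against 43.9% to 71.9% between 2 clones of 1 deletion. With each pair averaged into 1 sample, no call of the main fit was kept, and the spread within groups came from the clones alone. The endothelial markers differed between clones to unequal degrees. *PECAM1*, an adhesion molecule of endothelial junctions, lay between 13.9 and 159 FPKM, whereas *ERG* lay between 16.5 and 36.3 FPKM and *TIE1* between 46.3 and 91.6 FPKM. Of 8 epithelial markers, 3 passed, among them the keratins *KRT8* and *KRT18*, and the lung surfactant gene *SFTPC* was at 0 in 9 libraries. None of the 6 leukocyte or blood markers passed, and *HBB* was at 0 in all 10. In bulk RNA, fewer cells of a kind and less RNA per cell cannot be told apart.

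Promoter sequences are shown for 5 members from the groups with the widest spread between clones below, 3 of cell division and 2 metallothioneins. Each is the stretch from 250 bases before to 50 bases after a RefSeq start site on GRCh38.p14, and 457 of the 622 members had at least 1 such window. The first 3 have in capitals the letters TTTGAA, the core of the cell cycle genes homology region, searched on both strands. *PLK1* encodes a kinase of mitosis, *CCNF* the cyclin F that targets proteins for destruction, and *CENPN* a protein of the centromere.
PLK1, chr16:23678639-23678938, plus strand: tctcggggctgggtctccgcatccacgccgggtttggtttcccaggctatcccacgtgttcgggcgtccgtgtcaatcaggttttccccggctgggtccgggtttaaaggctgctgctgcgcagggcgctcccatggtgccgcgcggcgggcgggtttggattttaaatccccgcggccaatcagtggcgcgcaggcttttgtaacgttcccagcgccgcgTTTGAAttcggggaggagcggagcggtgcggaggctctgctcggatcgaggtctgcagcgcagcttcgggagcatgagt
CCNF, chr16:2429197-2429496, plus strand: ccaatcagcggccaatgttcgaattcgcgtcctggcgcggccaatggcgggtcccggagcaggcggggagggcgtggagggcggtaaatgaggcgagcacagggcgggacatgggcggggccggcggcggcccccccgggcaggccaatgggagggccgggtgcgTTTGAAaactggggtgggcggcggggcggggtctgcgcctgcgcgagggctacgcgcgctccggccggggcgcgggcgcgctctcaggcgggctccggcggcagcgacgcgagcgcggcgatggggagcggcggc
CENPN, chr16:81006964-81007263, plus strand: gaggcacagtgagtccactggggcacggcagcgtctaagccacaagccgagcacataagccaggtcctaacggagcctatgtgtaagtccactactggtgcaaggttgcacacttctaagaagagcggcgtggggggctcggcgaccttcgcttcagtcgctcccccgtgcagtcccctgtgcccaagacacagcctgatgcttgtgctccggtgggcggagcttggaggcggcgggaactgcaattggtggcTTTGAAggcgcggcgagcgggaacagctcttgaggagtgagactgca
In the next 2 the capitals mark TGCACNC or TGCGCNC, the core letters of the metal response element to which MTF1 binds, on either strand. *MT2A* is the most abundant metallothionein here and *MT1X* the next of the cluster.
MT2A, chr16:56608334-56608633, plus strand: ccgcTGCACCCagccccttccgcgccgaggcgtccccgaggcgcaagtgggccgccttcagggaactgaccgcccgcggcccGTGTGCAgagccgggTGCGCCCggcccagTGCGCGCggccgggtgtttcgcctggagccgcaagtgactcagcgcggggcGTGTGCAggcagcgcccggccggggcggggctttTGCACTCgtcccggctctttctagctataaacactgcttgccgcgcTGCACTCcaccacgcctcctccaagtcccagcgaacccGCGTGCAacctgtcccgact
MT1X, chr16:56682220-56682519, plus strand: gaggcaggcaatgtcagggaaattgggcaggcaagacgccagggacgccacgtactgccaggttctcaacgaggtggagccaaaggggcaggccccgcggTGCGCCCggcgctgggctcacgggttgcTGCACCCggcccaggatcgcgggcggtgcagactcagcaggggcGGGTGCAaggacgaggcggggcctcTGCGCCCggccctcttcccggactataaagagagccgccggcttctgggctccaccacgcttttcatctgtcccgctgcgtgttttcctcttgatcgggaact
The letters TTTGAA occurred in 15.2% of all 35116 promoter windows of this length and in 8.0% of the 625 windows of members. Of the 22 windows of the cell division list, 5 (22.7%) had them. These belonged to 4 of the 16 genes of the list with a window, the fourth being *NUP93*, a protein of the nuclear pore. Only windows that hold the letters are shown. The metal response letters occurred in 29.6% of all windows and 41.3% of those of members. The *MT2A* window held 8 of them and that of *MT1X* held 4. A match is a string of letters and not a shown binding site.

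The members spanned the whole chromosome, 358 on the short arm and 264 on the long arm, with none starting between 34.4 and 46.6 Mb (hg19), the stretch that holds the centromere. Of them, 574 were protein-coding and 48 were not. Their median level, as a mean over the libraries, was 8.19 FPKM, against 7.37 FPKM for tested genes on other chromosomes. The highest member was *RPS2*, a protein of the small ribosomal subunit, and the next were *MT2A*, *RPS15A*, another protein of that subunit, *ALDOA* and *EIF3C*. *ALDOA* is a glycolytic aldolase, and *EIF3C*, a subunit of an initiation factor, cannot be told apart from its near copy *EIF3CL*, which had almost the same values.

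The question put to the members was whether they stood apart, as a group and one by one, when a deletion was compared with its own controls. To answer it as a group, the median log2 FC of the members was set beside that of tested genes on other chromosomes, and the difference of the medians is called the offset. Single genes were tested with limma over all 13376 genes, and a gene was called a DEG (differentially expressed gene) below an FDR of 0.05 when its level also differed by 1.5-fold or more.

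**Figure D1:**
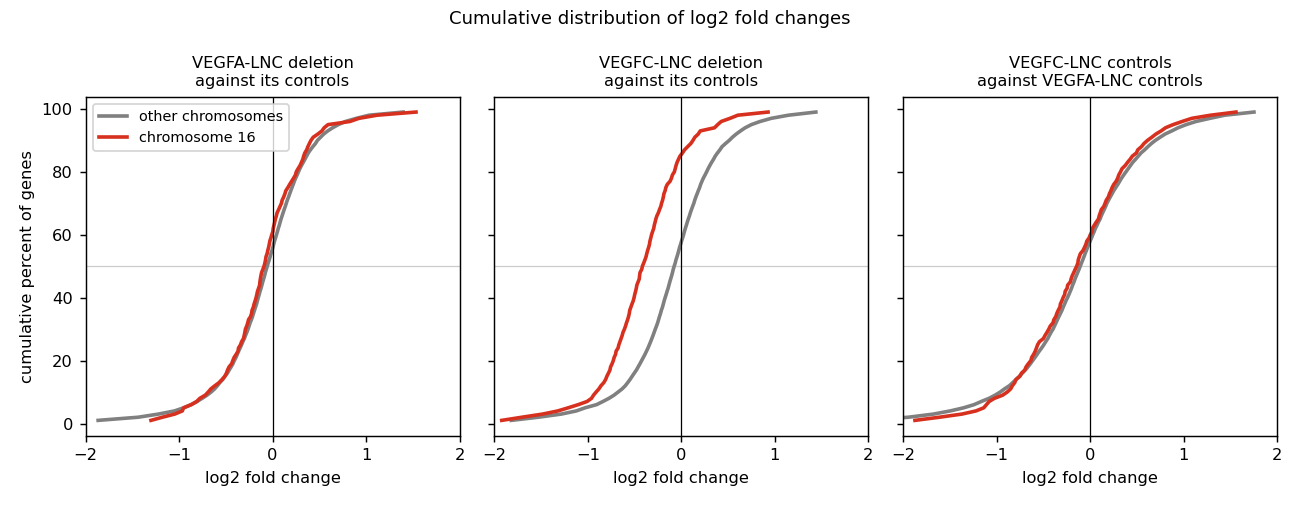
Cumulative percent of genes against log2 FC for the 622 members on chromosome 16 (red) and 12743 genes on other chromosomes (grey), in each of the 3 comparisons. The curves lie close together for the *VEGFA-LNC* deletion and for the controls, and the red curve lies to the left of the grey one for the *VEGFC-LNC* deletion, with medians of -0.42 and -0.08.

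In the *VEGFC-LNC* deletion clones the members as a whole were lower than in the controls. The median log2 FC was -0.42 for members and -0.08 for other genes, an offset of -0.34, which is 0.79 of the level of other genes. Of the 622 members, 532 (85.5%) had a log2 FC below 0, against 57.7% of genes elsewhere, and the spread of the members was no wider than that of other genes, with interquartile ranges of 0.50 and 0.54. Since this comparison drew attention to the chromosome, these values describe it and carry no test. All 3 clones lay below both controls for 385 members (61.9%), where this held for 30.6% of all tested genes. All 3 lay above both controls for 26 members (4.18%, against 17.2% of all tested genes). For 195 members (31.4%) the 3 clones were below all 7 other libraries, the *VEGFA-LNC* set included, against 7.31% of all tested genes.

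The lower level was seen in each clone. The offset was -0.300 in *VEGFC-LNC* clone 1, -0.395 in clone 2 and -0.326 in clone 3, or 0.812, 0.760 and 0.798 of the level of other genes. It was the lowest of 23 chromosomes in clones 2 and 3. In clone 1 chromosome 4, which carries *VEGFC*, was lower at -0.309, whereas in the other clones chromosome 12 was the next lowest, at -0.192 and -0.235. Against the *VEGFA-LNC* controls in place of their own, the 3 clones gave offsets of -0.335, -0.427 and -0.345. The *VEGFC-LNC* controls themselves were at -0.042 and -0.039 against the *VEGFA-LNC* controls.

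**Figure D2:**
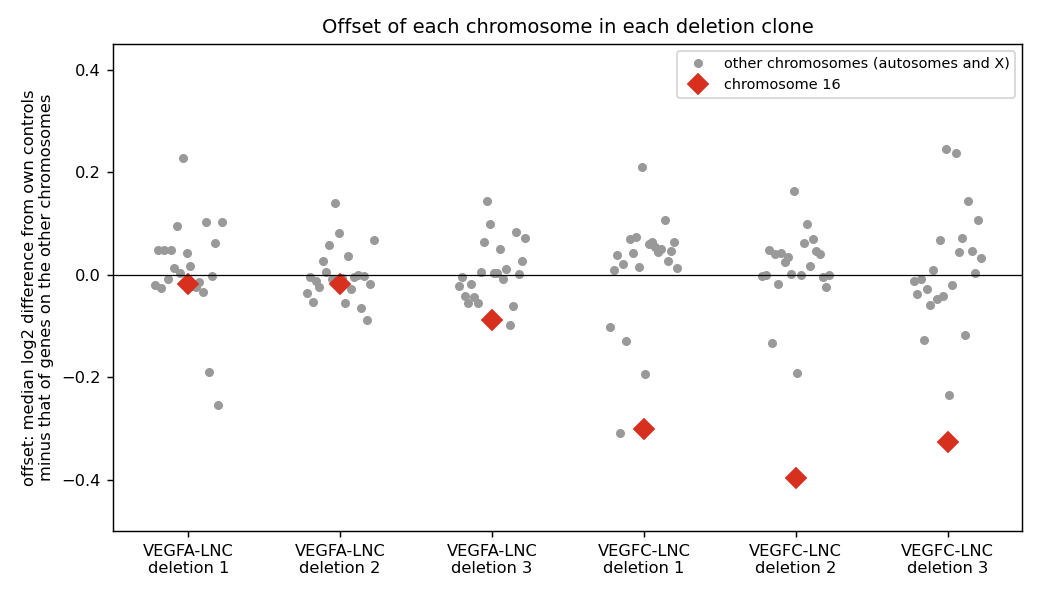
Offset of each chromosome (median log2 difference of its genes from the clone's own controls minus that of genes on the other chromosomes) in each of the 6 deletion clones, with chromosome 16 as a red diamond and the other autosomes and X as grey points. Chromosome 16 sits at -0.300, -0.395 and -0.326 in the *VEGFC-LNC* clones and between -0.087 and -0.017 in the *VEGFA-LNC* clones.

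Both arms took part. Relative to other chromosomes the short arm was at -0.31, -0.41 and -0.30 in *VEGFC-LNC* clones 1 to 3, and the long arm at -0.30, -0.36 and -0.35. When the members were divided into 25 windows of 24 or 25 neighbouring genes, every window had a median below that of other chromosomes in all 3 clones, with window medians between -0.65 and -0.09. Elsewhere in the genome the same held for 110 of 511 windows (21.5%). By band, the offset ran from -0.24 in 16q11 to 16q13 to -0.40 in 16q23.

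The offset of the *VEGFC-LNC* comparison was -0.24 in the third of members with the lowest FPKM, -0.35 in the middle and -0.40 in the highest, each set against other genes in the same range of FPKM. By transcript length, from short to long, it was -0.32, -0.39 and -0.30. It was -0.33 for protein-coding members and -0.38 for the others. Without the 24 members whose transcripts map to more than 1 place it was -0.34, and without the cell division list it was -0.32.

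Gene groups on the chromosome were lower to unequal degrees. They were listed by role with earlier results of these data known, and each is described by its counts and median, with no test. The 18 members of a cell division and DNA replication list had a median log2 FC of -1.11, and all 18 were below both controls in all 3 clones. The latter held for 61.9% of all members and 30.6% of all tested genes. *PLK1* measured 52.3 and 50.3 FPKM in the controls and 22.3, 4.56 and 13.7 FPKM in the clones. *GINS2*, part of the helicase that opens replication forks, measured 22.1 and 21.2 FPKM and 10.8, 2.63 and 4.93 FPKM. Clone 2 was the lowest of the 3 for both genes and clone 1 the highest, with no overlap with these controls. Against all 4 controls the log2 FC went from -2.18 to -1.40 for *PLK1* and from -2.03 to -1.14 for *GINS2*. The summed level of the list was 383 and 376 FPKM in the *VEGFC-LNC* controls and 231, 143 and 188 FPKM in their clones. In the *VEGFA-LNC* controls it was 248 and 254 FPKM, and thus nearer to that of clone 1.

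The other members of the list with large differences included *CDT1*, which licenses replication origins, at 22.2 and 20.9 FPKM in the controls and 10.4, 4.18 and 6.13 FPKM in the clones. *KIF22*, a kinesin that binds chromosomes, was at 30.6 and 32.5 FPKM and 18.6, 6.50 and 10.9 FPKM. *CENPN* was at 18.0 and 19.4 FPKM and 10.2, 4.28 and 4.84 FPKM, and *CCNF* at 15.7 and 15.6 FPKM and 8.79, 4.07 and 7.19 FPKM. These genes also differed in the *VEGFA-LNC* set, where the median of the list relative to other chromosomes was 0.64 in clone 1, -0.75 in clone 2 and -0.56 in clone 3, whereas *VEGFC-LNC* clones 1 to 3 were at -0.67, -1.43 and -0.95. The median log2 FC of the list was also 0.77, relative to other chromosomes, in the *VEGFC-LNC* controls against the *VEGFA-LNC* controls. The summed level of the 3 epithelial markers that passed, nearly all of it from the keratins *KRT8* and *KRT18*, was highest and lowest in the same clones of each set. It was 653 and 659 FPKM in the *VEGFC-LNC* controls and 366, 197 and 285 FPKM in clones 1 to 3, and in the *VEGFA-LNC* set it was 567 and 575 FPKM in the controls and 786, 258 and 395 FPKM in the clones. The third marker, the mucin *MUC1*, was ordered otherwise, at 2.65 and 2.29 FPKM in the *VEGFA-LNC* controls, 2.09, 3.65 and 3.99 FPKM in their clones, 1.40 and 2.43 FPKM in the *VEGFC-LNC* controls and 1.64, 0.932 and 2.64 FPKM in theirs. Both keratins lie on chromosome 12, whose offset was -0.194, -0.192 and -0.235 in *VEGFC-LNC* clones 1 to 3. In *VEGFA-LNC* clones 1 to 3 it was 0.017, -0.007 and 0.003. The summed level of the 9 endothelial markers that passed was ordered otherwise, with clone 1 the lowest of each set. It was 462 and 452 FPKM in the *VEGFC-LNC* controls and 395, 537 and 600 FPKM in their clones. In the *VEGFA-LNC* set it was 280 and 289 FPKM in the controls and 239, 697 and 423 FPKM in the clones. The part of the markers in the result was not tested.

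Clone 1 was the highest of the 3 clones for further cell division genes too. *PKMYT1*, a kinase that holds the mitotic kinase CDK1 inactive, was at 9.66 and 9.20 FPKM in the *VEGFC-LNC* controls and 5.52, 1.13 and 2.68 FPKM in the clones. *CHTF18*, which loads the sliding clamp of replication, was at 11.3 and 11.6 FPKM and 7.74, 2.54 and 3.39 FPKM, and *ORC6*, a subunit of the complex that marks replication origins, at 12.6 and 13.2 FPKM and 9.65, 3.27 and 3.02 FPKM. All clones were below both controls for these 3 genes, and clones 2 and 3 were well below clone 1. The list was not uniform, since *E2F4*, a repressor of cell cycle genes in resting cells, was at 35.4 and 34.2 FPKM and 24.2, 22.3 and 28.0 FPKM, and *CHTF8*, a partner of *CHTF18*, at 33.8 and 35.0 FPKM and 26.1, 25.9 and 33.3 FPKM. Outside the list, *SHCBP1*, a protein of dividing cells, was at 20.6 and 20.5 FPKM and 12.5, 2.30 and 3.92 FPKM.

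Members that serve protein synthesis and respiration were lower by less. Of 17 members of a list of mitochondrial proteins, which also holds the glycolytic *ALDOA*, all 17 had a log2 FC below 0 in the *VEGFC-LNC* clones. Their median was -0.66, and 15 were below both controls in every clone, which held for 61.9% of all members and 30.6% of all tested genes. *NDUFB10*, a subunit of respiratory complex I, was at 83.1 and 78.2 FPKM in the controls and 51.2, 40.8 and 55.4 FPKM in the clones. *COX4I1*, a subunit of cytochrome c oxidase, was at 174 and 180 FPKM and 126, 115 and 132 FPKM. *GOT2*, the mitochondrial aspartate aminotransferase, was at 95.4 and 90.6 FPKM and 59.0, 39.8 and 51.1 FPKM. Of 17 members of the ribosome and translation list, all 17 were below 0, with a median of -0.50. *RPS2* was at 2058 and 1932 FPKM and 1120, 970 and 1353 FPKM, all 3 clones below both controls. *RPS15A* overlapped, at 558 and 559 FPKM in the controls and 463, 551 and 595 FPKM in the clones.

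Of 17 chromatin and transcription members, all 17 were below 0 as well, with a median of -0.68. All clones were below both controls for 16, against 61.9% of all members and 30.6% of all tested genes. *CTCF*, which shapes chromosome loops, was at 21.9 and 21.1 FPKM in the controls and 14.8, 13.2 and 14.5 FPKM in the clones. *BRD7*, a subunit of a chromatin remodelling complex, was at 36.7 and 35.4 FPKM and 20.8, 20.8 and 24.0 FPKM. *SRCAP*, the motor of a complex that exchanges histones, was at 19.4 and 19.1 FPKM and 9.80, 9.60 and 12.9 FPKM. The clones overlapped the controls only for *ZFHX3*, a zinc finger factor, at 4.43 and 4.01 FPKM and 3.07, 4.26 and 4.50 FPKM. Of 13 RNA binding and splicing members, 12 were below 0 (median -0.73), led by *DDX28*, a helicase of mitochondrial ribosomes, and *PARN*, which trims poly(A) tails. Of 10 DNA repair members 9 were below 0 (median -0.45), and of 15 members for ubiquitin and protein quality control 12 were (median -0.38).

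Among DNA repair members the range was wide. *RMI2*, part of the complex that undoes crossed DNA strands, was at 14.0 and 15.5 FPKM in the controls and 6.59, 2.91 and 4.48 FPKM in the *VEGFC-LNC* clones. *RFWD3*, a ubiquitin ligase of stalled forks, was at 22.0 and 20.2 FPKM and 11.3, 8.29 and 8.89 FPKM, and *SLX4*, a scaffold of nucleases, at 2.90 and 2.79 FPKM and 1.68, 1.31 and 1.52 FPKM. No clone reached a control in these 3 genes. *TERF2*, which caps telomeres, was at 9.96 and 10.9 FPKM and 7.04, 7.76 and 9.98 FPKM. *MPG*, which removes alkylated bases, was the member with a log2 FC above 0, at 44.1 and 45.2 FPKM and 40.7, 53.0 and 57.8 FPKM.

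Of the members for ubiquitin and protein quality control, *USP7*, which removes ubiquitin from many nuclear proteins, was at 38.9 and 35.7 FPKM in the controls and 22.8, 20.7 and 24.0 FPKM in the *VEGFC-LNC* clones. *USP10*, of the same enzyme class, was at 38.0 and 36.0 FPKM and 22.4, 19.1 and 23.4 FPKM. All clones were below both controls for both genes. The 3 members above 0 were *HERPUD1*, a protein of the stressed endoplasmic reticulum, at 22.7 and 18.8 FPKM and 40.6, 22.6 and 20.9 FPKM, *CYLD*, which restrains NF-kappaB, at 3.20 and 3.39 FPKM and 3.70, 3.37 and 3.09 FPKM, and *USP31*, at 3.12 and 3.22 FPKM and 2.91, 4.11 and 3.32 FPKM.

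Other groups were mixed. Of 13 members of the mTORC1 pathway and autophagy, 12 were below 0 with a median of -0.27. *NPRL3*, which restrains mTORC1 when amino acids are scarce, was at 32.0 and 29.7 FPKM in the controls and 15.7, 11.6 and 14.5 FPKM in the clones, and *GABARAPL2*, a protein of autophagosome membranes, at 27.5 and 30.3 FPKM and 29.8, 35.7 and 28.7 FPKM. Of 17 vascular and signalling members, 13 were below 0 (median -0.44). *COTL1*, a partner of actin, was at 96.9 and 101 FPKM and 57.2, 34.1 and 45.1 FPKM, whereas *FOXF1*, a transcription factor of lung vessels, overlapped at 3.01 and 3.10 FPKM and 2.74, 3.74 and 2.20 FPKM. Of 11 innate immunity members, 8 were below 0 (median -0.22), and of 9 carboxylesterases and transporters, 6 were (median -0.16). For comparison, 57.7% of genes on other chromosomes were below 0.

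Genes of vessels and signalling covered both ends of this range. *NFAT5*, the factor of the response to salt, was at 29.1 and 29.3 FPKM in the controls and 13.6, 16.8 and 22.6 FPKM in the *VEGFC-LNC* clones, and *ADCY9*, which makes cyclic AMP, at 1.11 and 1.08 FPKM and 0.717, 0.785 and 0.538 FPKM. No clone reached a control in these genes. *MMP15*, a membrane-bound metalloproteinase, was at 0.895 and 0.839 FPKM and 0.864, 0.881 and 1.19 FPKM, and *CYBA*, a subunit of NADPH oxidase, at 6.04 and 7.57 FPKM and 6.18, 4.92 and 10.8 FPKM. Both overlapped.

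Of all members, 10 (1.61%) were DEGs by limma and lower upon *VEGFC-LNC* deletion, against 0.336% of all tested genes, and 0 were DEGs and higher, against 0.15%. At an unadjusted p under 0.05, 259 were lower and 6 higher. Nothing is read from these counts, since the comparison singled out the chromosome. Those at an unadjusted p were made for members only and not for all tested genes. The count of 10 was 0 without *VEGFC-LNC* clone 2 or any 1 control, 3 without *VEGFA-LNC* clone 3, 4 without *VEGFC-LNC* clone 3 and 124 without *VEGFA-LNC* clone 1, and 4 under a filter asking for the minimum in all 10 libraries. With all 4 controls as the reference it was 7, of which 2 were among the 10. Over all tested genes the 65 DEGs became 1161 without *VEGFA-LNC* clone 1 and 55 with all 4 controls as the reference. *PPL*, which builds the cornified envelope and desmosomes, was at 1.24 and 1.27 FPKM in the controls and 0.072, 0 and 0.024 FPKM in the clones, close to 0 throughout. *CNTNAP4*, a neurexin-like membrane protein, was at 0.399 and 0.406 FPKM and 0.046, 0 and 0.026 FPKM. *BCL7C*, a subunit of chromatin remodelling complexes, was at 17.5 and 15.5 FPKM and 8.56, 6.95 and 8.84 FPKM. *GINS3*, a partner of *GINS2*, was at 19.1 and 18.4 FPKM and 9.83, 9.99 and 11.0 FPKM. For these 4 genes no clone reached a control. With a pseudocount of 1 the log2 FC went from -3.39 to -1.13 for *PPL* and from -2.04 to -0.45 for *CNTNAP4*, and neither was then a DEG. Against all 4 controls that of *BCL7C* went from -1.02 to -0.61 and that of *GINS3* from -0.86 to -0.39, and neither was a DEG there.

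*PDPR*, a regulator of pyruvate dehydrogenase phosphatase, was at 12.4 and 11.4 FPKM in the controls and 6.64, 6.86 and 7.48 FPKM in the clones, and *DDX19B*, a helicase of mRNA export, at 26.2 and 23.9 FPKM and 15.0, 13.9 and 15.5 FPKM. The other 4 DEGs are *SULT1A3*, *SULT1A4* and their readthrough transcripts with *SLX1A* and *SLX1B*. They lie in a duplicated stretch of 16p11.2, encode identical or nearly identical sulfotransferases of catecholamines and share reads, so that they count as 1 signal. *SULT1A3* was at 102 and 107 FPKM in the controls and 49.0, 23.1 and 29.8 FPKM in the clones. Their relatives *SULT1A1* (9.16 and 8.94 FPKM and 4.43, 2.16 and 1.69 FPKM) and *SULT1A2* (5.06 and 6.11 FPKM and 2.06, 0.779 and 0.570 FPKM) were ordered in the same way, with clone 1 the highest, and may share reads with them.

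A few members went the other way. *IL32*, an inflammatory cytokine, was at 0.965 and 1.18 FPKM in the *VEGFC-LNC* controls and 1.23, 4.46 and 7.13 FPKM in the clones, and *DPEP1*, a dipeptidase, at 0.064 and 0.202 FPKM and 0.519, 2.02 and 0.998 FPKM. *SEZ6L2*, a membrane protein best known from neurons, was at 12.7 and 13.7 FPKM and 17.4, 28.3 and 34.4 FPKM. *CES3*, a carboxylesterase, was at 1.44 and 1.16 FPKM and 2.05, 2.25 and 2.83 FPKM. All 3 clones were above both controls for these 4 genes, and clone 1 was the lowest for each. None was a DEG. With all 4 controls as the reference, the difference of *IL32* had the opposite sign (log2 FC -0.35), since the *VEGFA-LNC* controls were at 17.1 and 17.5 FPKM. *METRN*, *SYNGR3* and *ACSM5* were also above, of which *ACSM5* was at -0.21 against all 4 controls, and *ZFP90* overlapped, at 1.43 and 0.999 FPKM and 0.973, 2.59 and 2.69 FPKM.

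Upon *VEGFA-LNC* deletion the chromosome as a whole did not stand apart by its median over the 3 clones. The offset was -0.03, or 0.977 of the level of other genes, and by clone it was -0.017, -0.017 and -0.087. Counted from the lowest of 23 chromosomes, it was number 8, 8 and 2 in clones 1 to 3. Members below both controls were 49.2%, 53.5% and 55.6% in these clones, against 47.5%, 53.8% and 48.1% of genes on other chromosomes. All 3 clones were below both controls for 153 members (24.6%, against 23.7% of all tested genes) and above both for 85 (13.7%, against 15.3%). By limma, 6 members were DEGs that fell (0.965% of members, against 2.01% of all tested genes) and 2 were DEGs that rose (0.322%, against 0.733%). With libraries scaled by the median of ratios the split was 7 that fell and 0 that rose. The count of 8 was 0 without any 1 of the 4 controls or with all 4 controls as the reference, 1 without *VEGFA-LNC* clone 3, 3 without clone 2, 79 without clone 1 and 18 without *VEGFC-LNC* clone 1, so that no single call below held in all of these settings.

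Among the 6 that fell were genes of autophagy, of flow sensing and of DNA repair. *MAP1LC3B*, which coats growing autophagosomes, measured 144 and 153 FPKM in the controls and 66.2, 90.8 and 80.8 FPKM in the clones (log2 FC -0.92 ± 0.15 (SE), FDR = 0.0202, limma). *PIEZO1*, the ion channel by which endothelial cells sense flow, measured 38.3 and 40.6 FPKM and 22.4, 21.2 and 21.1 FPKM (log2 FC -0.87 ± 0.17 (SE), FDR = 0.0343, limma). *ZNF23*, a zinc finger protein, measured 5.85 and 6.45 FPKM and 3.63, 2.95 and 3.42 FPKM (log2 FC -0.87 ± 0.16 (SE), FDR = 0.0315, limma). For each of the 3 genes the clones were alike and stood clear of both controls. Against all 4 controls together the differences were smaller, with a log2 FC of -0.05 for *MAP1LC3B*, -0.43 for *PIEZO1* and -0.29 for *ZNF23*, none of them past the threshold. *EME2*, a subunit of a nuclease that resolves stalled replication forks, measured 2.70 and 2.66 FPKM and 1.19, 1.49 and 1.17 FPKM (log2 FC -1.02 ± 0.19 (SE), FDR = 0.0338, limma). *ATF7IP2*, a chromatin protein, and *SMG1P7*, a pseudogene of the kinase *SMG1* that may share reads with it, were at low levels, 0.413 and 0.343 FPKM against 0.077, 0.047 and 0.017 FPKM (FDR = 0.0267) and 1.04 and 1.22 FPKM against 0.285, 0.374 and 0.458 FPKM (FDR = 0.0279, limma).

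The 2 that rose were *CORO7*, an actin-binding protein of the Golgi, and *PRRT2*, a protein of the synapse. *CORO7* measured 4.83 and 4.49 FPKM in the controls and 7.15, 9.27 and 9.42 FPKM in the clones (log2 FC 0.86 ± 0.18 (SE), FDR = 0.0438, limma). *PRRT2* measured 0.112 and 0.052 FPKM and 0.289, 0.445 and 0.449 FPKM (log2 FC 1.44 ± 0.30 (SE), FDR = 0.0436, limma), and thus stayed under 1 FPKM. With all 4 controls as the reference the log2 FC was 0.59 for *CORO7* and 0.37 for *PRRT2*, and with a pseudocount of 1 it was 0.36 for *PRRT2*. None of these values passed. In the *VEGFC-LNC* set both were ordered the other way. *CORO7* was at 6.36 and 7.27 FPKM in the controls and 4.43, 5.91 and 5.40 FPKM in the clones, and *PRRT2* at 0.740 and 0.645 FPKM and 0.314, 0.570 and 0.405 FPKM.

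Some larger differences did not pass, under a spread estimated over all 4 groups together. *OSGIN1*, a growth inhibitor induced by oxidative stress, measured 28.2 and 28.9 FPKM in the *VEGFA-LNC* controls and 7.97, 7.77 and 6.82 FPKM in the clones (log2 FC -1.91 ± 0.46 (SE), FDR = 0.064, limma), and the clones of the *VEGFC-LNC* set, which enter the same estimate, lay at 6.49, 2.88 and 1.54 FPKM. *TNFRSF12A*, the receptor of the cytokine TWEAK, measured 90.5 and 90.5 FPKM and 58.3, 30.8 and 29.0 FPKM (log2 FC -1.27 ± 0.29 (SE), FDR = 0.0562, limma). Both genes were lower in every clone than in either control. *EXOC3L1*, a relative of an exocyst subunit, measured 0.672 and 0.946 FPKM and 2.41, 9.77 and 5.77 FPKM (log2 FC 2.55 ± 0.65 (SE), FDR = 0.0761, limma), with the clones above the controls and clone 2 the highest. *PPL* was at 0.333 and 0.235 FPKM in the controls and 0.617, 2.80 and 2.09 FPKM in the clones (FDR = 0.0736, limma), the reverse of its order in the *VEGFC-LNC* set. The 8 largest differences upwards also held 5 near copies of 1 gene in 16p11.2, which share reads and count as 1 signal.

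Of the mTORC1 and autophagy list, 12 of 13 members were below 0 in this comparison (median -0.24, against -0.06 for other chromosomes, and 55.6% of whose genes were below 0), and *MAP1LC3B* was its only DEG. *VPS35*, which sorts endosomal cargo, was the exception, at 30.5 and 30.6 FPKM in the controls and 37.2, 41.4 and 41.6 FPKM in the clones (FDR = 0.0985, limma). Of 18 cell division genes, 14 were below 0 and none was a DEG, and the 3 clones were far apart. *PLK1* was at 17.3 and 17.3 FPKM in the controls and 47.9, 3.50 and 4.67 FPKM in clones 1 to 3 (FDR = 0.688, limma), so that clone 1 was above and the others below both controls. *RPS2* had its clones on the same sides of the controls, at 1249 and 1239 FPKM and 2009, 1097 and 960 FPKM (FDR = 0.956, limma). *NDUFB10* did too, at 86.5 and 81.3 FPKM and 97.6, 75.6 and 60.8 FPKM (FDR = 0.778, limma). For *RPS2* and *NDUFB10* clone 3 was the lowest, and the differences were smaller than for *PLK1*.

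Genes of vessels and of transport held no DEG in the *VEGFA-LNC* comparison. Of 17 vascular and signalling members 11 were below 0, with a median of -0.03 relative to other chromosomes, and all clones were below both controls for 5 and above both for 3. Of 9 carboxylesterases and transporters 6 were below 0, with a relative median of -0.14, and all clones were below both controls for 2. Of all tested genes, 23.7% had every clone below both controls and 15.3% had every clone above both. Of genes on other chromosomes 55.6% were below 0, and nothing is read from the counts of these lists. The members given next are among those with the larger differences. *FOXC2*, a transcription factor of lymphatic valves, measured 11.3 and 10.2 FPKM in the controls and 9.26, 3.04 and 4.90 FPKM in the clones (log2 FC -1.04 ± 0.38 (SE), FDR = 0.18, limma). *ADCY9* measured 1.33 and 1.33 FPKM and 0.854, 0.506 and 0.835 FPKM (log2 FC -0.81 ± 0.26 (SE), FDR = 0.135, limma). *SLC7A5*, which brings large amino acids into the cell, measured 20.8 and 21.4 FPKM and 24.0, 5.61 and 7.93 FPKM (log2 FC -1.03 ± 0.61 (SE), FDR = 0.392, limma), and *SLC12A4*, which exports potassium and chloride, 28.0 and 29.3 FPKM and 12.1, 12.2 and 21.5 FPKM (log2 FC -0.96 ± 0.29 (SE), FDR = 0.113, limma). Every clone was below both controls for *FOXC2*, *ADCY9* and *SLC12A4*, whereas clone 1 was above them for *SLC7A5*. *CYBA* was the other way, at 14.0 and 15.5 FPKM and 21.7, 22.0 and 22.4 FPKM (log2 FC 0.58 ± 0.28 (SE), FDR = 0.297, limma).

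Among noncoding and duplicated members with large differences, *SNHG9*, a host transcript of a small nucleolar RNA, was at 9.21 and 3.64 FPKM in the *VEGFA-LNC* controls and 1.75, 2.82 and 1.74 FPKM in the clones (log2 FC -1.46 ± 0.46 (SE), FDR = 0.135, limma). *OTOA*, a protein of the inner ear, and its near copy *LOC653786*, which share reads, were at 1.59 and 1.96 FPKM and 1.00, 0.990 and 0.257 FPKM (FDR = 0.209, limma), and 1.43 and 1.79 FPKM and 0.913, 0.879 and 0.260 FPKM (FDR = 0.177, limma). Their difference was not on the same side with all 4 controls as the reference, where the log2 FC was 0.00 for *OTOA* and 0.10 for *LOC653786*.

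*VEGFA-LNC* clone 3 had a pattern along the chromosome that its median over the chromosome did not show. In the 253 members of the short arm outside 16p11 its median, relative to other chromosomes, was -0.33 (0.797 of their level), with 199 of 253 members lower. In the 105 members of 16p11 it was 0.42 (1.34 of their level), with 80 of 105 higher. On the long arm it was 0.01. Clones 1 and 2 were between -0.05 and 0.02 in these 3 stretches. These medians hide differences within 16p11. In windows 11 to 14, from 28.4 to 31.9 Mb, clone 2 was at -0.37, 0.16, 0.03 and 0.33. Clone 1 was at -0.11, 0.05, -0.15 and -0.01 there. Clone 3 was below both controls for 78.7% of the members outside 16p11 on the short arm, where 48.1% of genes on other chromosomes were, and above both controls for 70.5% of those in 16p11, where 40.2% of genes elsewhere were. The line between 16p11 and the rest of the short arm lies where the values of this clone change sign. The shares therefore only describe the values by which the stretches differ. These are values of 1 clone, and no test was made.

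The change lay between neighbouring windows. The window ending with *SBK1* at 28.3 Mb was at -0.28 in clone 3, and the next, starting with *NPIPB6* at 28.4 Mb, was at 0.22. The 3 windows after it, up to *ZNF267* at 31.9 Mb, were at 0.43, 0.23 and 0.61. Window 15, which spans the centromere, was at 0.37, 0.27 and 0.28 in clones 1 to 3, and beyond it clone 3 lay between -0.17 and 0.15. In the *VEGFC-LNC* clones the same stretch of 16p11 was at -0.30, -0.46 and -0.26, close to the rest of the chromosome.

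Single genes show the same difference between stretches. *NOMO1*, a membrane protein of the endoplasmic reticulum with near copies on the same arm, was at 126 and 137 FPKM in the *VEGFA-LNC* controls and 94.3, 99.8 and 77.5 FPKM in clones 1 to 3. *GSPT1*, which ends translation, was at 33.5 and 32.0 FPKM and 33.8, 25.6 and 21.9 FPKM, and *PARN* at 12.7 and 14.0 FPKM and 17.2, 11.6 and 8.16 FPKM. All 3 lie on the short arm outside 16p11, and clone 3 was the lowest library of the set for each. In 16p11.2, *RNF40*, a ubiquitin ligase for histone H2B, was at 25.7 and 25.6 FPKM and 21.3, 23.3 and 33.3 FPKM. *MAPK3*, the kinase ERK1, was at 20.5 and 21.5 FPKM and 21.8, 21.9 and 27.6 FPKM, and *SETD1A*, a histone methyltransferase, at 6.40 and 5.94 FPKM and 7.34, 7.07 and 9.17 FPKM. Clone 3 was the highest library of the set for these 3 genes. All 6 genes were picked after their values were seen.

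The 2 control sets were compared to see how far the members differed without any deletion. Both deletion comparisons share their controls with this one. The offset was -0.04. By limma, 63 members were DEGs lower in the *VEGFC-LNC* controls than in the *VEGFA-LNC* controls (10.1%, against 9.74% of all tested genes) and 15 were DEGs higher (2.41%, against 2.92%). With libraries scaled by the median of ratios the split was 35 lower and 28 higher. That scaling shifts the median log2 FC of all genes in this comparison by 0.10, from -0.11, so that an FC near the threshold can change sides. Over all tested genes the 1694 DEGs of the main fit became 3074 without *VEGFA-LNC* clone 1. The 78 DEGs were 1 without any 1 of the 4 controls and 146 without *VEGFA-LNC* clone 1.

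The lowest FDR among these members was that of *MAP1LC3B*, at 144 and 153 FPKM in the *VEGFA-LNC* controls and 44.8 and 44.4 FPKM in the *VEGFC-LNC* controls (log2 FC -1.73 ± 0.16 (SE), FDR = 0.00214, limma). *GABARAPL2* (log2 FC -1.08 ± 0.20 (SE), FDR = 0.0137) and *ATP6V0D1*, a subunit of the proton pump of lysosomes (log2 FC -1.11 ± 0.26 (SE), FDR = 0.0266), were lower too (limma). *OSGIN1* was at 28.2 and 28.9 FPKM and 4.20 and 4.26 FPKM (log2 FC -2.73 ± 0.50 (SE), FDR = 0.0137, limma), and *TNFRSF12A* at 90.5 and 90.5 FPKM and 24.3 and 29.8 FPKM (log2 FC -1.74 ± 0.31 (SE), FDR = 0.0129, limma). *GINS3* (log2 FC 0.94 ± 0.13 (SE), FDR = 0.00572) and *BRD7* (log2 FC 0.78 ± 0.16 (SE), FDR = 0.0201) were among those that were higher (limma). For *MAP1LC3B*, *PIEZO1*, *OSGIN1* and *TNFRSF12A*, the *VEGFA-LNC* controls had the highest values of all 10 libraries.

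Further members differed between the control sets. *QPRT*, an enzyme of NAD synthesis, was at 1.16 and 1.31 FPKM in the *VEGFA-LNC* controls and 0.287 and 0.226 FPKM in the *VEGFC-LNC* controls (log2 FC -1.91 ± 0.37 (SE), FDR = 0.016, limma), and *CDIP1*, a protein of cell death, at 0.876 and 1.28 FPKM and 0.211 and 0.232 FPKM (log2 FC -1.85 ± 0.35 (SE), FDR = 0.0154, limma). *IL32* had the largest difference, at 17.1 and 17.5 FPKM and 0.965 and 1.18 FPKM, but did not pass (log2 FC -3.89 ± 1.29 (SE), FDR = 0.0793, limma), with its *VEGFA-LNC* clones at 1.46, 21.4 and 32.8 FPKM. *BRICD5* was at 0.337 and 0.260 FPKM and 1.44 and 1.25 FPKM (log2 FC 1.86 ± 0.25 (SE), FDR = 0.00534, limma), and *RMI2* at 4.55 and 3.18 FPKM and 14.0 and 15.5 FPKM (log2 FC 1.92 ± 0.54 (SE), FDR = 0.0499, limma). *GINS2*, at 5.34 and 7.10 FPKM and 22.1 and 21.2 FPKM, did not pass (log2 FC 1.80 ± 1.08 (SE), FDR = 0.29, limma).

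The metallothioneins were ordered unlike most members in the *VEGFC-LNC* clones. Of 12 genes of the cluster, 3 passed the filter. *MT2A* was at 527 and 557 FPKM in the *VEGFC-LNC* controls and 609, 344 and 586 FPKM in the clones, and *MT1X* at 22.4 and 25.3 FPKM and 58.4, 12.7 and 46.1 FPKM. For both, clones 1 and 3 were above the controls and clone 2 below them. In the *VEGFA-LNC* set *MT2A* was at 883 and 800 FPKM in the controls and 401, 294 and 512 FPKM in the clones (log2 FC -1.10 ± 0.30 (SE), FDR = 0.0895, limma), and *MT1X* at 29.7 and 30.0 FPKM and 16.5, 10.2 and 20.9 FPKM (log2 FC -0.97 ± 0.57 (SE), FDR = 0.393, limma). Here every clone was below both controls for both genes, clone 2 the lowest, and neither passed the test. *MT1G* was at 4.06 and 4.91 FPKM and 2.37, 2.73 and 4.06 FPKM in this set. *MT1E* did not pass the filter. It was at 0.574 and 0.530 FPKM in the *VEGFA-LNC* controls and 0 in their 3 clones, and at 1.26 and 1.40 FPKM in the *VEGFC-LNC* controls and 0.089, 0 and 0 FPKM in their clones. These genes are near copies of each other, so that their split of reads is uncertain.

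Several families of the chromosome were hardly measured. None of the 7 cadherins and none of the 5 alpha globin genes of the lists passed the filter. The list does not hold every cadherin of the chromosome, and symbols left out by name are not reported, so that it says nothing of cadherins as a family. Of 8 chemokines and genes of the CKLF family, 4 passed, all of them of the CKLF family. *CMTM3*, a membrane protein of that family, measured 17.4 and 18.3 FPKM in the *VEGFA-LNC* controls and 23.8, 42.8 and 38.1 FPKM in the clones (log2 FC 0.92 ± 0.26 (SE), FDR = 0.0961, limma), and *CKLF* 21.8 and 19.2 FPKM and 22.0, 37.3 and 31.2 FPKM (FDR = 0.211, limma). Just inside the filter were *LOC100134368*, *IRX5* and *CLEC18B*, whose second highest libraries had 1.03, 1.03 and 1.02 such scaled reads, and just outside were *PRSS36*, *ATP2A1* and *ATP2C2-AS1*, with 0.977, 0.976 and 0.949.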

How the data were processed

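Total RNA was sequenced in single reads of 75 bases. Per the labels and the study's methods, the authors trimmed reads with Trim Galore (0.4.4), aligned them with STAR (2.5.4b) to hg19 and counted them with featureCounts. The table they deposited holds FPKM of RefSeq transcripts in 65572 rows, of which 42 name no gene and were left out. The counter and setting behind its FPKM values are not given in the sources used here. Reads of transcripts that overlap or have near copies may be split or shared among them.

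For each symbol the row with the highest mean FPKM was kept, and genes with FPKM × kilobases of at least 1 in 2 or more libraries were tested (13376). log2(FPKM + 0.1) was fitted in R (4.3.3) with limma (3.58.1; lmFit, eBayes with trend) over 10 libraries in 4 groups, with 6 residual degrees of freedom. Fold changes are on this scale, which understates those of low genes. FDRs follow Benjamini and Hochberg over all tested genes. The study's test of counts was not used, since the deposited values are FPKM. Each deletion was compared with its own controls, and the control sets with each other. The fit was run on simulated data with the same spread in all 4 groups. In the data the controls of a set were more alike than the clones, so that the simulation cannot tell how stable the DEG counts are.

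Chromosome, gene lists and tests were chosen with earlier results of these data known. Genes named are passing members of the lists, the 8 largest differences each way per comparison (mean of at least 1 FPKM in a group), all DEGs where there were 12 or fewer, the 5 highest members and the 3 on each side of the filter. Alternatives were a pseudocount of 1, other filters, scaling by the median of ratios, all 4 controls as reference, control pairs averaged, a replicate block, the longest row per symbol and leaving out each library. Promoters are RefSeq, GRCh38.p14. Human coordinates of genes are hg19 from the table and were not converted. Some symbols of the chromosome, noncoding RNAs among them, are not reported here.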

Additional observations from a re-analysis of the deposited data

Results flagged for a closer look

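For 9 members the effect of the *VEGFC-LNC* deletion differed from that of the *VEGFA-LNC* deletion by the interaction term of the limma fit at an FDR under 0.05 and a difference of at least 1.5-fold. In all 9 the *VEGFC-LNC* effect was the lower one (1.45% of members, against 0.591% of all tested genes lower and 0.86% higher). Since the *VEGFC-LNC* comparison drew attention to the chromosome, these differences are given as a description.

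The log2 difference of effects was -5.52 for *PPL* and -2.24 for *CNTNAP4*, both near 0 FPKM in the *VEGFC-LNC* clones. It was -2.55 for *QPRT*, an enzyme of NAD synthesis, which was at 1.16 and 1.31 FPKM in the *VEGFA-LNC* controls and 3.60, 2.13 and 3.20 FPKM in their clones, and at 0.287 and 0.226 FPKM in the *VEGFC-LNC* controls and 0.097, 0.030 and 0 FPKM in theirs. The sizes of these 3 depend on the pseudocount. It was -1.40 for *BCL7C*, -1.34 for *ENKD1*, -1.07 for *FAM192A* and -0.98 for *GINS3*. For *SLX1A* and *SLX1B*, copies of a nuclease subunit with the same reads, it was -1.01 in each. *SLX1A* was at 38.4 and 41.2 FPKM and 53.6, 51.6 and 54.6 FPKM in the *VEGFA-LNC* set, and at 72.6 and 74.7 FPKM and 54.1, 47.4 and 45.2 FPKM in the *VEGFC-LNC* set.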

How the results depend on the processing

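The offset of the *VEGFC-LNC* comparison (-0.34) kept its direction in every setting tried. It was -0.27 with a pseudocount of 1, -0.26 with no filter on low values, and between -0.37 and -0.31 without any 1 library. This is a description, since the chromosome was chosen by this difference in the same libraries. Leaving out a *VEGFA-LNC* library or averaging control pairs could not move the value, which there rests on the means of the *VEGFC-LNC* groups only. The offset of the *VEGFA-LNC* comparison (-0.03) lay between -0.04 and 0.00 over the other settings and between -0.06 and -0.02 without 1 library. That of the controls (-0.04) was -0.04 with a pseudocount of 1, -0.01 with no filter, -0.03 with the longest row per symbol, and between -0.07 and -0.04 without 1 library.

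Counts of DEGs were less stable, and the cause was not tested. For the *VEGFA-LNC* deletion the count of 8 became 17 with a pseudocount of 1, 23 with no filter, 0 with all 4 controls as the reference (103 at an unadjusted p under 0.05, limma) and 0 with control pairs averaged, and it lay between 0 and 79 without 1 library. For the *VEGFC-LNC* deletion the count of 10 became 4 under the stricter filter and 0 with control pairs averaged, and lay between 0 and 124 without 1 library. For the controls the count of 78 became 0 with control pairs averaged and lay between 1 and 146. The highest counts came without *VEGFA-LNC* clone 1 and the lowest without any 1 control, where the lone control of a set is assumed to vary like the other groups. The replicate numbers name no shared origin in the labels. With the replicate block, 3 members were DEGs for the *VEGFA-LNC* deletion, 0 for the *VEGFC-LNC* deletion (247 at an unadjusted p under 0.05, limma) and 76 for the controls. Counts at an unadjusted p are of members only, with no share over all tested genes beside them, and nothing is read from them.

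Among genes named, 4 differences changed sign with all 4 controls as the reference, at 0.00 for *OTOA* and 0.10 for *LOC653786* (*VEGFA-LNC*), and -0.35 for *IL32* and -0.21 for *ACSM5* (*VEGFC-LNC*). Of the other values of named genes under an alternative, 832 stayed on their side of the threshold, 230 lost a call and 40 gained one. The 832 include genes called neither in the main fit nor in the alternative, whereas only a gene called in the main fit could lose a call. They therefore do not measure how stable the calls were. The range of depths limits low genes most, with 1 library at 6743998 reads.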
